A study of Homo sapiens with 14 samples.

Results

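The promoter-flanking regions were the NF-κB binding regions whose nearer edge lay 1 to 10000 bp from the closest transcription start site (TSS). They were chosen by the distance given in the deposited table, among regions that had each been called for at least 1 subunit. They numbered 3098 of 14865 regions in the union of all calls, or 20.8%. Of these, 1379 lay upstream of the TSS and 1719 downstream. The other regions were 2447 that overlapped a TSS, 4348 beyond 10 kb inside genes, 4914 beyond 10 kb outside genes and 58 without a TSS within 1 Mb.

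The regions came from ChIP-seq, that is, sequencing of DNA fragments co-precipitated with a protein, in L1236 cells. The L1236 line is established and was derived from a Hodgkin lymphoma. The cells were grown in RPMI medium with heat-inactivated serum, no treatment or genetic change is named in the labels, and all libraries are of this 1 line. There were 2 libraries each with antibodies to p50, p52, RelA (p65) and RelB, and 6 of input DNA. The 2 p52 libraries were made with different antibodies. Since the replicates were merged for the final calls, the table holds 1 read count, 1 call and 1 fold enrichment per subunit and region, and differences in these could not be set against the spread between replicates. A signal value is given for each of the 2 replicates, but 2 are too few for an exact test to pass a threshold, so no p-value is given. The 95% intervals treat regions as independent and cover counting error over regions only, and regions of 1 gene share their place. The study's methods call the 2 libraries of a subunit biological replicates.

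NF-κB proteins bind DNA as dimers at κB sites, short and nearly symmetric sequences that begin with a run of G. RelA and RelB carry a transactivation domain. p50 and p52, the processed products of NFKB1 and NFKB2, lack one and act through partners. p50-RelA is the main dimer of the canonical pathway and p52-RelB that of the non-canonical pathway, and both pathways are active without stimulus in Hodgkin lymphoma cells. The DNA close to a TSS holds core promoter, proximal enhancers and, on the downstream side, mostly the first introns of the gene.

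Among the flanking regions, 5 held an amplicon of the study's qPCR primer list, and these pairs are shown because they locate the sites by sequence. The primers are given 5′ to 3′ in lower case, with no part marked. Amplicon positions are on hg18.
BCL2L1_SP3: accatcacagggttttccag
BCL2L1_RP3: ccgggtaattttcgacagaa
BCL3_SP1: aaatcccttcccgcagaac
BCL3_RP1: gttccggtaaagtctcagcc
BCL6_SP1: gtgggtgagaggtgggacta
BCL6_RP1: ctttcccctaaatccctcgt
CCL22_SP1: gagtgccccctgtaagaaaac
CCL22_RP1: ggactgaaagtgagtgacagagaa
CCR7_SP4: ccaacatctaggtcaaccac
CCR7_RP4: ggccttgagtcagatcatcc

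The BCL2L1 pair spanned 86 bp at chr20:29768868-29768953, within a region 4490 bp downstream of the TSS and inside the gene of this anti-apoptotic BCL2 relative. The BCL3 pair spanned 143 bp at chr19:49948548-49948690, in a region 4227 bp downstream of the TSS of this IκB protein, which binds p50 and p52. The p50, p52 and RelB summits, the positions of highest pileup, all lay inside the BCL3 amplicon. The BCL6 pair spanned 72 bp at chr3:188938510-188938581, 6494 bp downstream of the TSS of this germinal centre repressor, with the 3 called summits 20 to 28 bp from the amplicon. The CCL22 pair spanned 76 bp at chr16:55944336-55944411 in a region 5490 bp upstream of the TSS of this chemokine. The CCR7 pair spanned 126 bp at chr17:35971172-35971297, 2865 bp downstream of the TSS of this lymph node homing receptor. The BCL2L1 and CCR7 regions were called for all 4 subunits and the other 3 for p50, p52 and RelB. Of all flanking regions 2.45% were called for all 4 and 17.9% for p50, p52 and RelB without RelA. Of the 5 amplicons, which the study picked, 4 lay on the downstream side, inside the transcribed gene. Of all 3098 flanking regions, 1719 lay on that side.

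The number of regions per kb of distance was highest next to the TSS on both sides. The distance is to the closest TSS, and the genome positions available at each distance were not counted. In the first kb there were 211 upstream and 331 downstream regions, in the second kb 205 and 216, and between 9 and 10 kb 108 and 104. The upstream share of all flanking regions was 44.5% (Wilson 95% interval 42.8 to 46.3), so that downstream regions were 1.25 times as many. The excess downstream was largest in the first kb. Beyond the 10 kb limit the numbers ran on without a step, with 85 upstream and 109 downstream regions between 10 and 11 kb. The last upstream region inside the limit, 9992 bp away at chr5:180220577-180221512, was called for p50 alone at 15.3-fold enrichment. The first outside it, 10004 bp away at chr15:39562329-39563361, was called for p50, p52 and RelB. On the downstream side the regions at 9997 bp (chr3:130004894-130006101) and 10005 bp (chr1:92713956-92715016) were both called for p50, p52 and RelB, with p52 fold enrichments of 39.8 and 36.2.

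**Figure D1:**
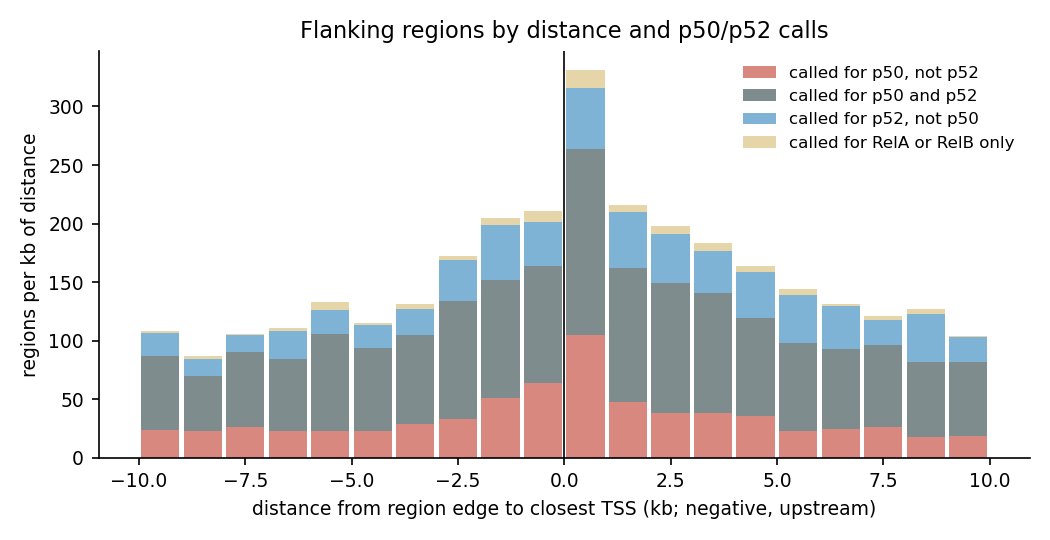
Number of flanking regions per kb of distance between the region's edge and the closest TSS (x axis in kb, upstream negative), stacked by the authors' p50 and p52 calls. The tallest bar is the first kb downstream with 331 regions, and the bars fall to 108 and 104 at the outer ends.

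The sign of the distance was checked on the 2661 regions whose closest gene and closest TSS belonged to the same gene. All 1044 with a negative distance lay outside the gene, at the same distance from gene and TSS. Of those with a positive distance, 1495 touched the gene and 122 lay past its end. Over all members, 1587 of 1719 downstream regions touched a gene (92.3%, interval 91.0 to 93.5), and for 92 of these it was a gene other than that of the TSS. Of the upstream regions 243 touched a gene, always a neighbour (17.6%, interval 15.7 to 19.7), beside 58.0% of the whole union. Upstream regions inside a neighbouring gene and those touching none were called for p50 in 81.1% and 78.3% and for p52 in 72.0% and 74.4%. The 132 downstream regions that touched no gene were called for RelB in 35.6% (interval 28.0 to 44.1). The 1587 that touched a gene were called for it in 25.8% (23.7 to 28.0). These intervals just met, and no interval of the difference was computed.

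p50 and p52 were called in about equal parts of the flanking regions, RelB in far fewer and RelA rarely. Of the 3098 regions, 2372 were called for p50 (76.6%, beside 73.8% of the union), 2310 for p52 (74.6%, beside 73.3%), 812 for RelB (26.2%, beside 26.8%) and 88 for RelA (2.84%, beside 3.31%). A call for 2 or more subunits was present in 1773 regions (57.2%, beside 55.0%). The commonest combination was p50 with p52 only, in 1044 regions (33.7%, beside 31.8%). It was followed by p50 alone in 664 (21.4%, beside 21.2%), p52 alone in 571 (18.4%, beside 19.8%) and p50, p52 and RelB in 553 (17.9%, beside 17.1%). RelB alone was called in 87 regions (2.81%, beside 3.83%) and all 4 subunits in 76 (2.45%, beside 2.35%). Over the whole window these shares lay near the background of the union and are no result about the flanking regions.

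p50 was called more often upstream, in 1086 of 1379 regions (78.8%, interval 76.5 to 80.8), than downstream, in 1286 of 1719 (74.8%, interval 72.7 to 76.8). The difference was 3.94 percentage points, with a Newcombe 95% interval of 0.944 to 6.90. It was 5.31 points (1.99 to 8.58) among regions more than 1 kb from the TSS and 1.35 points (-2.46 to 5.10) within 5 kb. With 1 region per gene it was 2.61 points (-0.723 to 5.90). For p52 the shares were 74.0% upstream and 75.0% downstream, a difference of -1.08 points (-4.18 to 2.00). RelB was called in 355 upstream regions (25.7%) and 457 downstream (26.6%), which differed by -0.842 points (-3.94 to 2.28). RelA was called in 36 upstream (2.61%) and 52 downstream (3.03%), which differed by -0.414 points (-1.58 to 0.798). Of these 4 intervals, that of p50 alone left out 0. Regions of p52 alone made up 16.4% upstream and 20.1% downstream, a difference of -3.68 points (-6.38 to -0.939). Regions of p50 with p52 made up 35.6% and 32.2%, a difference of 3.44 points (0.0868 to 6.79). For p50 alone the difference was 0.972 points, for p50, p52 and RelB -0.151 and for all 4 -0.631. For RelB alone it was -0.487 and for p52 with RelB -0.0781. The intervals of all these other patterns included 0. Pattern differences were not examined under other settings.

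Reads per kb of region width differed little between the sides. For p50 the median was 96.6 reads per kb upstream (interval 93.6 to 99.3, quartiles 69.4 and 137) and 91.2 downstream (88.7 to 94.3, quartiles 64.9 and 131). The log2 ratio of these medians was 0.08 (0.02 to 0.14), and the upstream region had the higher value in 52.6% of all pairs of an upstream and a downstream region. Upstream regions were narrower, with a median of 829 bp against 872 bp, and without the division by width the log2 ratio was -0.02 (-0.11 to 0.08). For p52 the medians were 93.5 and 90.2 reads per kb, a log2 ratio of 0.05 (-0.03 to 0.13). For RelA they were 14.8 and 15.4, a log2 ratio of -0.06 (-0.12 to 0.00). For RelB they were 20.8 and 20.3, a log2 ratio of 0.04 (-0.05 to 0.11). The quartiles of the 2 sides overlapped widely for each subunit. Most regions had no RelA or RelB call, so the RelA and RelB medians mostly describe regions without one.

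**Figure D2:**
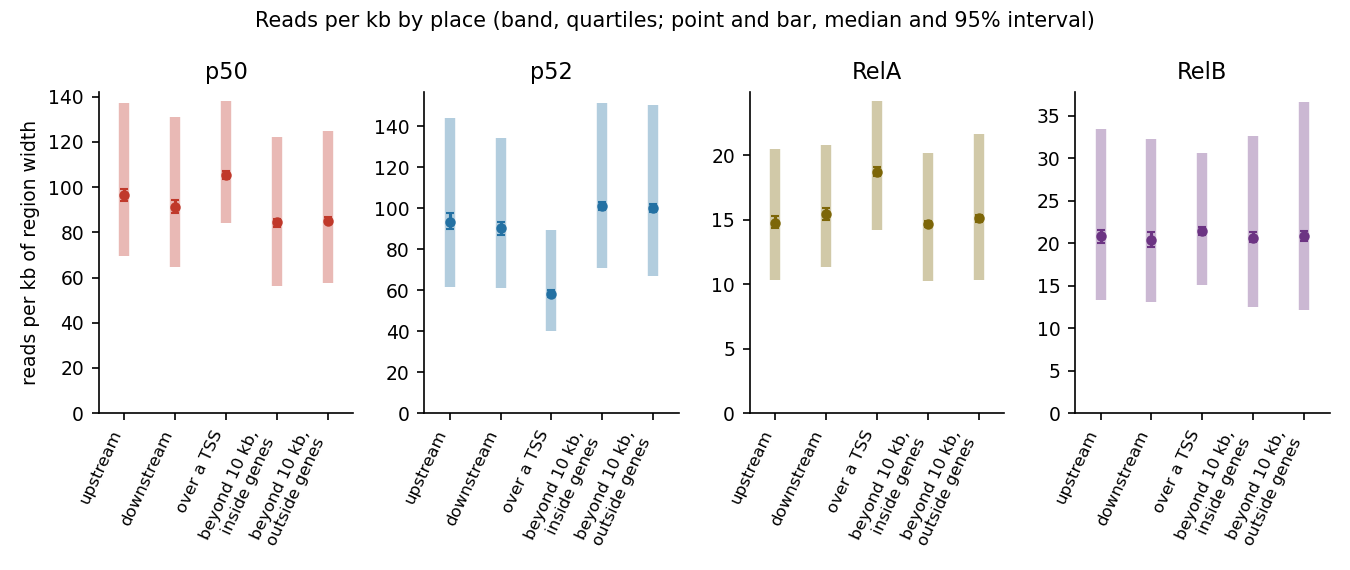
Reads per kb of region width for each subunit (y axes from 0, each with its own scale) in regions upstream and downstream of a TSS, over a TSS, and beyond 10 kb inside and outside genes. Bands span the quartiles, points and bars give the median with its 95% interval; p52 is lowest over a TSS, at 58.1, against 93.5 and 90.2 in the flanks.

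Fold enrichment over input at the summit, in the regions called for a subunit, was also alike on the 2 sides. The median p50 fold enrichment was 17.4 upstream and 17.0 downstream, with a log2 ratio of 0.03 (-0.04 to 0.10). For p52 it was 17.8 and 16.7, a log2 ratio of 0.09 (-0.0048 to 0.21). For RelA it was 6.75 (n = 36) and 7.05 (n = 52), and for RelB 9.12 on both sides. Within regions called for both p50 and p52, the p50 fold enrichment was the higher in 320 of 767 upstream (41.7%) and 417 of 910 downstream (45.8%). In regions over a TSS it was the higher in 892 of 1238 (72.1%). On the 2 signal values, 1 for each replicate, the log2 ratio of upstream to downstream medians was 0.03 and 0.06 for p50 and -0.003 and 0.10 for RelB, all with intervals that included 0. For p52 it was 0.19 (0.06 to 0.30) on one and 0.09 (-0.06 to 0.23) on the other. Which value belongs to which of the 2 p52 antibodies is not given in the sources used here. The 2 signal values had Spearman rank correlations across flanking regions of 0.77 (p52), 0.71 (p50), 0.50 (RelB) and -0.04 (RelA). These correlations are across regions that share the 2 libraries, and the n is 88 for RelA.

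What differed with distance was the balance of p50 and p52. It was measured as the log2 ratio of p50 to p52 reads in a region, with 1 read added to each. The counts come from different antibodies and were not scaled to each other here, so 0 does not mean equal binding. The median of the ratio was 0.86 (interval 0.83 to 0.88) over a TSS, where p50 reads were the more numerous. In the first kb it was 0.31 (0.14 to 0.51) upstream and 0.43 (0.34 to 0.54) downstream. From 1 to 10 kb it was -0.08 (-0.15 to -0.02) upstream and -0.15 (-0.20 to -0.10) downstream. Beyond 10 kb it was -0.42 inside genes and -0.37 outside them. The upstream and downstream medians over the whole window were both -0.03, and their difference was 0.00 (-0.09 to 0.09). Every region had entered the union through a call, and the calls bear on this ratio. Regions of p50 alone made up 42.2% over a TSS and 21.4% of the flanks, those of p52 alone 2.33% and 18.4%. In regions called for both, the median log2 ratio of p50 to p52 fold enrichment was 0.32 (0.28 to 0.37) over a TSS. It was -0.11 (-0.15 to -0.07) upstream and -0.05 (-0.11 to -0.01) downstream.

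**Figure D3:**
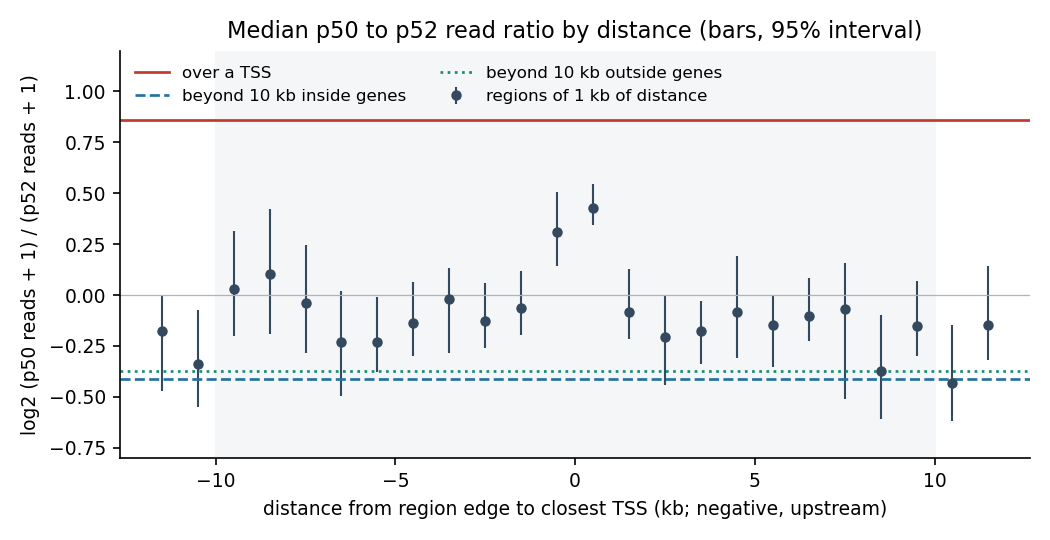
Median log2 ratio of p50 to p52 reads for each kb of distance from the TSS (points, with 95% intervals), from 12 kb upstream to 12 kb downstream, with the 10 kb window shaded. Horizontal lines mark the median over a TSS (0.86) and beyond 10 kb inside (-0.42) and outside (-0.37) genes; the points of the first kb, 0.31 and 0.43, stand above those further out.

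The first kb differed from the rest of the window in p52 on both sides and in p50 calls downstream. The median of p52 was 70.7 reads per kb in the 542 regions of the first kb and 96.1 in the 2556 beyond it, a log2 ratio of -0.44 (-0.55 to -0.33). The median of p50 was 91.9 and 94.3 (log2 ratio -0.04, -0.09 to 0.05). p52 was called in 64.2% of the first kb and 76.8% of the rest, a difference of -12.6 points (-17.0 to -8.29), and p50 in 79.0% and 76.1%, a difference of 2.91 points (-1.06 to 6.55). The drop in p52 calls held on each side, with -10.7 points (-17.7 to -4.04) upstream and -14.0 points (-19.7 to -8.51) downstream. The p50 call difference was -1.21 points (-7.69 to 4.43) upstream and 6.13 points (0.953 to 10.8) downstream. RelA and RelB shares differed by -1.43 points (-2.51 to 0.154) and -2.25 points (-6.09 to 1.89). p50 alone made up 28.0% of the first kb upstream and 30.5% downstream, against 20.9% and 18.7% further out.

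In the 100 bp closest to the TSS the p52 share of the flanking regions was near that over it, on few regions. The upstream p50 share there was near the 77.7% of the first kb and the 78.9% from 1 to 10 kb. Of the 21 regions within 100 bp upstream, 10 were called for p52 (47.6%, interval 28.3 to 67.6) and 17 for p50 (81.0%, 60.0 to 92.3). Of the 28 within 100 bp downstream, 13 were called for p52 (46.4%, 29.5 to 64.2) and 26 for p50 (92.9%, 77.4 to 98.0). None of these 49 regions was called for RelA: 0 of 21 allows a share of up to 15.5% and 0 of 28 up to 12.1% by the Wilson bound. Over a TSS, p52 was called in 53.1% and p50 in 96.1% of 2447 regions.

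Compared with regions over a TSS, the flanking regions were called less often for p50, by -19.5 points (-21.2 to -17.8), and more often for p52, by 21.4 points (18.9 to 23.9). RelA was called less often by -1.90 points (-2.96 to -0.892), and RelB differed by 0.301 points (-2.03 to 2.62). Regions over a TSS were wider, with a median of 1358 bp against 854 bp. Among regions 500 to 2000 bp wide the p52 difference was 29.4 points (26.7 to 32.1) and the p50 difference -17.6 points (-19.4 to -15.8). At these widths the RelA difference was -0.738 points (-1.81 to 0.279), with an interval that included 0, and the RelB difference was 4.69 points (2.22 to 7.13), with one that left it out. Compared with regions beyond 10 kb inside genes, the flanks were called more often for p50, by 8.72 points (6.67 to 10.7), and less often for p52, by -7.27 points (-9.19 to -5.36). Against regions beyond 10 kb outside genes, p50 differed by 9.92 points (7.91 to 11.9) and p52 by -0.527 points (-2.49 to 1.41). Median RelB reads per kb lay between 20.6 and 21.4 in the flanks and in all 3 comparison groups. RelB was called in only 24.7 to 29.2% of each group, so these medians mostly describe regions without a RelB call.

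The same shift was present within genes, where each region had likewise entered the union through a call. There were 2532 genes with a flanking region: 1024 with upstream regions only, 1324 with downstream regions only and 184 with both. Of these genes, 497 (19.6%, interval 18.1 to 21.2) also had a region over the TSS. In those 497, the median log2 ratio of p50 to p52 reads was 0.61 (0.53 to 0.67) over the TSS and -0.23 (-0.30 to -0.15) in the flanking regions. The difference within a gene had a median of -0.76 (-0.87 to -0.67), and the flank had the higher ratio in only 103 genes (20.7%, interval 17.4 to 24.5). p52 reads per kb were higher in the flank in 361 of the 497 genes (72.6%), with a median log2 difference of 0.64 (0.50 to 0.80), whereas the p50 difference was -0.13 (-0.21 to -0.04). The value was alike on the 2 sides, with a median of -0.76 in 254 genes with upstream regions and -0.69 in 297 with downstream regions. p52 was called in the flank but not over the TSS in 155 genes and the other way round in 39, while for p50 these numbers were 22 and 87. In the 184 genes with regions on both sides, the ratio was higher upstream in 92 and the median difference was 0.01 (-0.16 to 0.14).

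**Figure D4:**
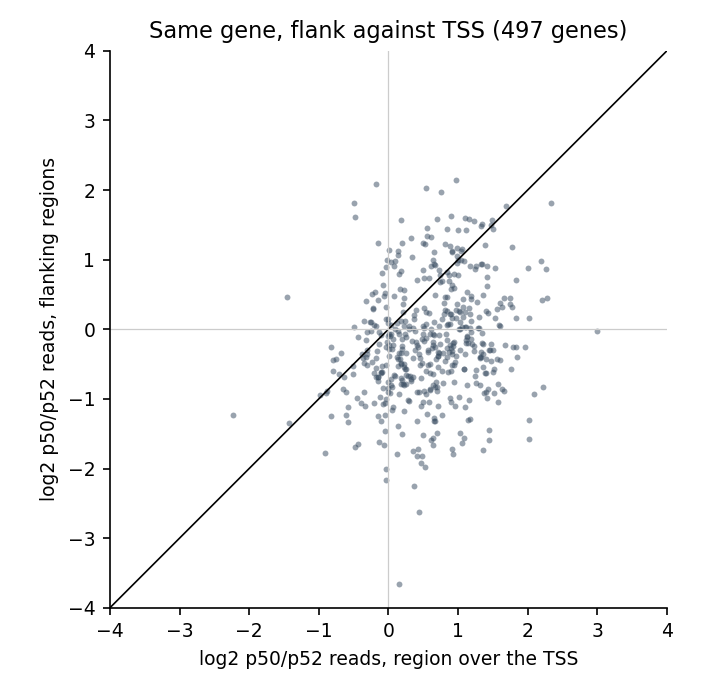
Log2 ratio of p50 to p52 reads in the region over the TSS (x axis) and in the flanking regions of the same gene (y axis), 1 point for each of 497 genes, with the line of equality. All but 103 genes lie on or under the line.

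RelB calls lay mostly where p50 and p52 were both called. Of 1677 flanking regions called for both, 629 were also called for RelB (37.5%, interval 35.2 to 39.9), beside 37.8% in the whole union. Of 695 called for p50 without p52 it was 31 (4.46%, 3.16 to 6.26, beside 5.10%), and of 633 called for p52 without p50 it was 62 (9.79%, 7.72 to 12.4, beside 9.60%). These shares lay near those of the union and are no result about the flanks. As in the whole union, RelB was called more often with p52 without p50 than with p50 without p52. Both shares were far below that of regions called for p50 and p52. RelA was called in 80 of the 1677 (4.77%, beside 4.87% in the whole union). It was called in 2 of the 695 (beside 0.690%) and in 0 of the 633 (beside 0.831%), where 0 allows a share of up to 0.603%. Of the 88 RelA regions, 76 were called for all 4 subunits, beside 349 of 492 in the whole union.

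The p50 and p52 fold enrichments rose from regions of either alone to p50 with p52, then with RelB added, then to all 4. The median p52 fold enrichment was 12.2 in regions of p52 alone, 17.1 with p50, 28.0 with p50 and RelB and 43.7 in regions of all 4. For p50 the medians in the corresponding sets were 13.4 alone, then 18.0, 25.2 and 35.3. In reads per kb, p50 or p52 with RelB only did not clearly exceed p50 or p52 alone. The 29 regions of p50 with RelB had a median of 77.9 p50 reads per kb (67.3 to 95.2). Those of p50 alone had 93.6 (91.2 to 96.4). The 62 regions of p52 with RelB had a median of 98.6 p52 reads per kb (88.1 to 112). Those of p52 alone had 92.6 (90.1 to 95.6). In fold enrichment, p52 with RelB only had a median of 14.5 (12.8 to 15.7). That was above the 12.2 (11.8 to 12.6) of p52 alone, and the intervals did not meet. For p50 with RelB only the median was 15.7 (13.2 to 17.8), against 13.4 for p50 alone, and the intervals overlapped. No interval of these differences was computed. The median width differed as well, from 655 bp for p52 alone and 722 bp for p50 alone to 903 bp, 1231 bp and 1412.5 bp. The 76 regions of all 4 subunits had a median RelB fold enrichment of 17.6 and a median RelA fold enrichment of 7.10. In regions of p50, p52 and RelB, p52 reads per kb had a median of 175 upstream (162 to 194) and 139 downstream (124 to 159), intervals that did not meet. The p52 fold enrichment of the same regions was also higher upstream, 31.6 (27.7 to 34.5) against 26.4 (24.4 to 28.6). These intervals overlapped, and no interval of the difference was computed. In regions of p50 with p52 only, p52 reads per kb were 109 and 106. In regions of all 4 they were 210 (158 to 335) and 219 (191 to 285).

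Where 2 subunits were called in 1 flanking region, their summits were close. The p50 and p52 summits lay a median of 11 bp apart in 1677 regions and within 250 bp in 95.9% of them. For p52 and RelB the median was 20 bp in 691 regions, with 93.5% within 250 bp, and for RelA and RelB 21 bp in 81 regions. Over a TSS, 89.9% of the p50 and p52 summits and 84.5% of the p52 and RelB summits were within 250 bp of each other. Across all 3098 flanking regions the rank correlation of reads per kb was 0.43 between p50 and p52, 0.49 between p52 and RelB and 0.32 between p50 and RelB, each pair sharing the regions and their widths.

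Genes of the NF-κB circuit itself were among those with flanking regions. Gene symbols were known for 410 of the 2532 genes, so the lists below are incomplete, and the symbols come from tables of genes the study selected. Of 179 listed symbols, 75 had an identifier and 49 of these had 76 flanking regions, 34 upstream and 42 downstream. Among them p50 was called in 64, p52 in 65, RelB in 41 and RelA in 10. The RelB share of 53.9% (interval 42.8 to 64.7) stood beside 26.2% of all flanking regions and 29.2% of those with any symbol, and the share called for all 4 was 13.2% beside 2.45% and 4.09%. The lists were drawn up with results of these data known, so these shares describe them and support nothing. The counts of single lists below are of few regions, to be read beside the shares of all flanking regions, which were 76.6% (p50), 74.6% (p52), 26.2% (RelB) and 2.84% (RelA).

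**Figure D5:**
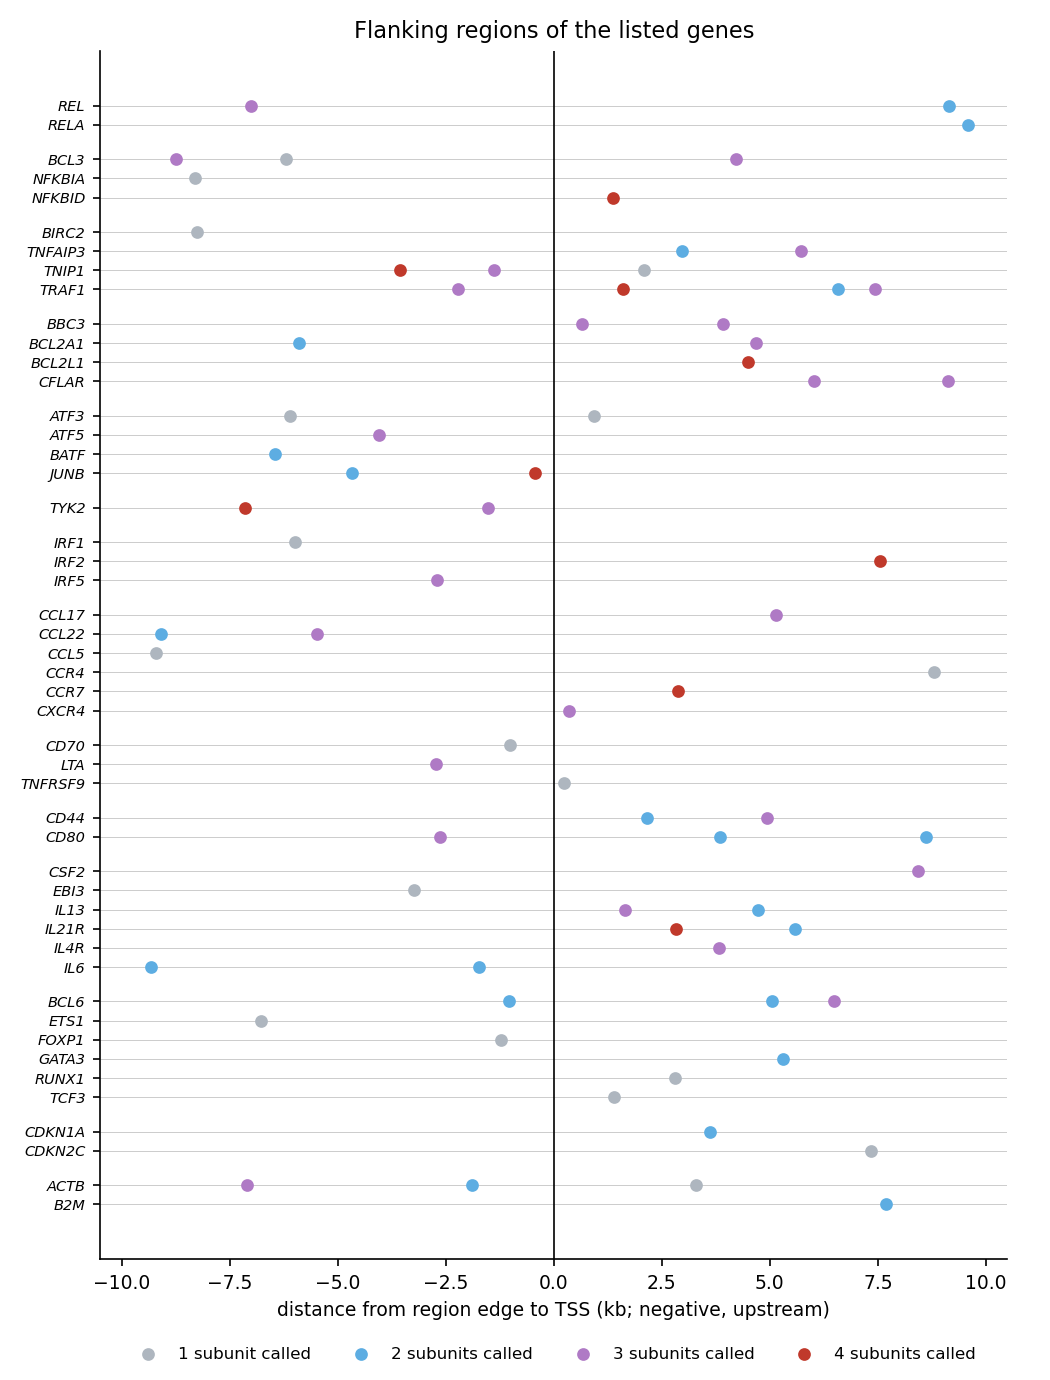
The 74 flanking regions of 48 listed genes at their distance from the TSS (x axis in kb, upstream negative), coloured by how many of the 4 subunits were called. Rows are genes, grouped by list, and 9 points mark regions called for all 4 subunits.

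Among the subunit genes, REL, which encodes c-Rel, had a region 7006 bp upstream with 113 p50, 170 p52, 8 RelA and 34 RelB reads, called for p50, p52 and RelB. A second lay 9157 bp downstream with 81, 142, 6 and 37 reads, called for p50 and p52. RELA had 1 region 9598 bp downstream of its TSS and past the end of the gene, with 208 p50, 83 p52, 24 RelA and 36 RelB reads, called for p50 and RelB. Both REL regions held more p52 than p50 reads and the RELA region the reverse. Among the IκB genes, BCL3 had 3 regions. The 2 strong ones, at 8752 bp upstream and at the amplicon 4227 bp downstream, had p52 fold enrichments of 54.5 and 58.5, p50 fold enrichments of 45.7 and 51.8 and RelB fold enrichments of 13.4 and 12.8. The weak one, 6187 bp upstream, was called for p52 alone at 10.2-fold. NFKBIA, which encodes the classical inhibitor IκBα, had 1 region 8297 bp upstream, called for p50 alone with 76 p50, 21 p52, 6 RelA and 3 RelB reads. NFKBID, a nuclear IκB gene, had a region 1362 bp downstream that was called for all 4 subunits with 318, 286, 42 and 141 reads.

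The 4 feedback genes with flanking regions held 10 regions, with p50 called in 10, p52 in 8, RelB in 6 and RelA in 2, beside 76.6%, 74.6%, 26.2% and 2.84% of all flanking regions. TRAF1, an adaptor of the TNF receptors, had 4 of them. Its region 1597 bp downstream was called for all 4 subunits with fold enrichments of 33.3 for p50, 57.9 for p52, 6.80 for RelA and 18.0 for RelB. The region 2215 bp upstream had 440 p52 reads against 199 for p50 and was not called for RelA. The other two TRAF1 regions, 6568 and 7437 bp downstream, had p52 fold enrichments of 19.5 and 22.8. TNIP1, which encodes a partner of the A20 protein, had a region 3552 bp upstream called for all 4 subunits with 663 p50, 470 p52, 73 RelA and 93 RelB reads. Its regions at 1390 bp upstream and 2098 bp downstream were called for 3 subunits and for p50 alone. TNFAIP3, which encodes A20 itself, had both its regions downstream, at 2979 bp (p50 17.2-fold, p52 24.8-fold) and 5721 bp (p50 41.7-fold, p52 68.6-fold and RelB 19.9-fold). BIRC2, which encodes an inhibitor of apoptosis protein, had 1 region 8254 bp upstream, 428 bp from the neighbouring gene BIRC3, called for p50 alone at 13.8-fold.

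The promoters of 3 of these genes are shown because each gene had both a region over its TSS and flanking regions, and because their promoters hold κB-like sequences. RELA, BCL3, BIRC2, TNIP1 and TRAF1 also had both kinds of region, but their promoters held no such match and are not shown. They are the 250 bases before the RefSeq TSS on GRCh38.p14, 5′ to 3′ on the strand of the gene, at chr6:137867009-137867258, chr2:60881324-60881573 and, on the minus strand, chr14:35404750-35404999. Capitals mark matches on either strand to GGG, then any 3 bases, then TTCC or TCCC, where overlapping matches run together. The binding regions are on hg18, so their overlap with these windows was not computed.
TNFAIP3: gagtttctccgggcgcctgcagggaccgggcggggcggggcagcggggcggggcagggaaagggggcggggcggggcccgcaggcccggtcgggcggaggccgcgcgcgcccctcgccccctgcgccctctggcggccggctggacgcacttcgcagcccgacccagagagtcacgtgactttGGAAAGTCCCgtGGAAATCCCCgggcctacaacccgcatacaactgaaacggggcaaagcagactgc
REL: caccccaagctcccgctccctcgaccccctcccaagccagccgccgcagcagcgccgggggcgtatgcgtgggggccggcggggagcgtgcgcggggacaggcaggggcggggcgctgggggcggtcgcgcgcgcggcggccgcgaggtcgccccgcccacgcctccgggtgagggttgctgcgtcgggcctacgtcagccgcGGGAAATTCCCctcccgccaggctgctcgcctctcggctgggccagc
NFKBIA: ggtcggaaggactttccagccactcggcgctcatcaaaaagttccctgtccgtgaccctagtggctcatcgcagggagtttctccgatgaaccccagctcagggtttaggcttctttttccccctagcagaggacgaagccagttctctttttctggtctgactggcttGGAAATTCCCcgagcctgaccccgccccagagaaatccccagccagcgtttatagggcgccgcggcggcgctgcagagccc

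Of all 27305 promoters in the table, 3030 held a match (11.1%, interval 10.7 to 11.5). Of the 281 promoters matched by symbol to genes with a flanking region, 51 did (18.1%, 14.1 to 23.1). Among genes with a region over the TSS it was 76 of 268 (28.4%, 23.3 to 34.0), and among all genes with an identifier and a symbol 198 of 1233 (16.1%, 14.1 to 18.2). The interval of the flanking genes therefore overlapped that of all named genes. A match is a match of letters and not a measured site.

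Of the apoptosis list, 4 genes had 7 regions, with p50 called in 7 and p52 in 7 (beside 76.6% and 74.6% of all flanking regions), RelB in 6 (26.2%) and RelA in 1 (2.84%). The BCL2L1 region held the most p50, p52 and RelB reads of the 7, with 517 p50, 1062 p52, 62 RelA and 201 RelB reads, or 308, 633, 36.9 and 120 reads per kb. It had the most p52 reads per kb of all downstream members. BCL2A1, an anti-apoptotic BCL2 relative, had opposite balances on its 2 sides. Its upstream region at 5893 bp had 113 p50 and 45 p52 reads, and its downstream region at 4675 bp had 79 and 168. CFLAR, which encodes an inhibitor of caspase 8, had regions 6027 and 9120 bp downstream, and BBC3, which encodes the pro-apoptotic PUMA, had regions 650 and 3919 bp downstream with p50 fold enrichments of 42.1 and 24.9.

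Of the AP-1 and ATF list, 4 genes had 6 regions, 5 of them upstream. JUNB had a region 428 bp upstream called for all 4 subunits with fold enrichments of 62.9 for p50, 87.8 for p52, 12.6 for RelA and 39.1 for RelB. Its reads were 713, 834, 111 and 262. ATF5 had a region 4042 bp upstream with 559 p50, 801 p52, 61 RelA and 223 RelB reads, not called for RelA. The BATF region at 6451 bp upstream was called for p50 and p52, and ATF3 had 1 region for p50 alone upstream and 1 for p52 alone 924 bp downstream.

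The region 7154 bp upstream of TYK2, a JAK kinase, at chr19:10357268-10358532, had the highest fold enrichment of all upstream members for p50, p52 and RelA, at 99.95, 117 and 17.9, with RelB at 38.1. It held 450 p50, 574 p52, 53 RelA and 150 RelB reads and lay 4277 bp from another gene, its closest. The other TYK2 region, 1529 bp upstream, held 201 p50, 175 p52, 52 RelA and 85 RelB reads and had no RelA call. Of the interferon regulatory factor list, IRF2 had a region 7540 bp downstream called for all 4 subunits with 124, 111, 51 and 40 reads, IRF5 a region 2695 bp upstream called for 3, and IRF1 a region 6000 bp upstream called for RelB alone at 4.29-fold.

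Of the chemokine list, 6 genes had 7 regions. The CCR7 region was called for all 4 subunits with 444 p50, 763 p52, 119 RelA and 197 RelB reads. CCL17, a chemokine that attracts T helper cells, had a region 5139 bp downstream with 600 p50, 548 p52, 71 RelA and 125 RelB reads, called for p50, p52 and RelB. CCL22 had regions 5490 and 9093 bp upstream with p50 fold enrichments of 17.4 and 16.6. The lowest ratio in this list was that of CCR4, 8795 bp downstream and past the gene, with 32 p50 and 142 p52 reads. Of the cytokine list, IL21R had a region 2835 bp downstream called for all 4 subunits with 295, 410, 71 and 121 reads. CSF2, which encodes GM-CSF, had a region 8429 bp downstream of its TSS and 6055 bp past the gene with 604 p50, 755 p52, 46 RelA and 147 RelB reads. IL13 and IL6 had 2 regions each and IL4R and EBI3 1 each.

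Of the TNF family, LTA had a region 2728 bp upstream with 324 p50, 511 p52, 42 RelA and 102 RelB reads, while the CD70 and TNFRSF9 regions were called for p52 alone at 11.9-fold and 11.3-fold. Of the costimulation and adhesion list, CD80, a ligand of CD28, had 3 regions, the strongest 2633 bp upstream with 309 p50, 595 p52, 53 RelA and 76 RelB reads. CD44, an adhesion receptor, had 2 downstream with opposite balances, 111 p50 and 49 p52 reads at 2160 bp and 125 and 210 at 4945 bp. Of the B cell and T cell factors, 6 genes had 8 regions, 8 called for p52 and 3 for p50, beside 74.6% and 76.6% of all flanking regions. All 3 p50 calls were at BCL6. Its amplicon region had p50 and p52 fold enrichments of 53.0 and 60.9, whereas the FOXP1 region 1215 bp upstream, called for p52 alone, had 17 p50 and 70 p52 reads. ETS1, RUNX1 and TCF3 also had 1 region each called for p52 alone, and GATA3 1 called for p52 and RelB. In the cell cycle list, CDKN1A and CDKN2C had 1 downstream region each, called for p50 and p52 and for p50 alone. The housekeeping genes were not free of such regions. ACTB, which encodes β-actin, had 3, with p50 fold enrichments of 30.5, 34.1 and 17.1, and B2M had 1.

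Some genes gathered several regions. Of the 2532 genes, 2099 had 1 flanking region, 333 had 2 and 100 had 3 or more. After 1 gene with 9, which is described below, 6 genes had 5 each, 2 of them with a known symbol. AHNAK, which encodes a very large scaffold protein, had regions 6327 and 4619 bp upstream and 396, 3641 and 4823 bp downstream, all called for p50 and 4 of them for p52. Upstream the p52 fold enrichments were 42.3 and 44.1, downstream 22.8 and 11.3 where called. TMPRSS13, which encodes a membrane serine protease, had 3 regions upstream and 2 downstream, with p52 called in all 5 and p50 in 4. Of all flanking regions 76.6% were called for p50 and 74.6% for p52, so these counts are no result about the 2 genes.

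The densest members were of different kinds. For p52 they were the BCL2L1 region and, upstream, chr8:81557223-81558203 with 746 p52 and 354 p50 reads per kb and a RelB fold enrichment of 40.8. The region with the most p50 reads per kb upstream was chr8:144700467-144701042, with 542 p50, 705 p52, 24.3 RelA and 83.3 RelB reads per kb. The region with the most RelB reads per kb upstream was chr2:10093471-10094676, with 257 RelB, 258 p50, 335 p52 and 68.0 RelA reads per kb, called for all 4. Downstream, 1 region led for p50, RelA and RelB. It lay at chr1:154452704-154453431, 3296 bp downstream of the TSS of ENSG00000160783, with 794 p50, 577 p52, 716 RelA and 838 RelB reads per kb. Its fold enrichments were only 5.29, 4.18, 4.57 and 7.49.

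A small set had alike read densities with all 4 antibodies, mostly with low fold enrichment. In 17 of the 3098 regions the 4 densities were within a factor of 2 of each other. Of these, 8 were called for RelA, 8 for RelB alone, and 8 lay near 1 gene on chromosome Y, ENSG00000206163. That gene had 9 flanking regions, the most of any gene, with RelB called in all 9 and fold enrichments of its calls between 2.58 and 7.05. Of all flanking regions 26.2% were called for RelB, 2.81% for RelB alone and 2.84% for RelA. In 5 flanking regions the pileup over fold enrichment, a measure of the input level, exceeded 5 times the subunit's median, and all 5 were called for RelA and RelB. Without them, or without chromosome Y, the p50 difference between the sides was 4.07 and 4.01 points. Among the 17, 2 regions on chromosomes 2 and 8 had high fold enrichment for all 4 subunits, and chr2:8738558-8740808, 2132 bp downstream of a TSS, had 26.5 for p50, 27.8 for p52, 25.4 for RelA and 21.7 for RelB. That was the highest RelA fold enrichment of the downstream members.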

How the data were processed

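ChIP-seq libraries of L1236 cells were analysed from 1 deposited table of regions. Per the labels and the study's methods, the authors aligned reads to hg18 with Bowtie (version not given in the sources used here), kept uniquely mapped reads without duplicates, reduced libraries to a common size, called peaks with MACS, filtered them by IDR between replicates, merged replicates and joined overlapping peaks of the 4 subunits. Deposited values were the read count per region and subunit, the MACS fold enrichment (a ratio to input), the pileup signal at the summit, the IDR as a fraction, the MACS FDR as a q-value and a signal score for each replicate. Whether reads were counted before or after the reduction is not given in the sources used here. The union held 1654137 p50, 1810792 p52, 315151 RelA and 470788 RelB reads, and 17.6 to 20.8% of them lay in flanking regions.

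Counts were divided by region width. Shares have Wilson and their differences Newcombe 95% intervals, and medians have order-statistic intervals (scipy 1.17.1 and pandas 2.3.3 under Python 3.11.15, with numpy 2.4.6; figures with matplotlib 3.10.9). The interval code was tested on simulated data. Symbols came from the study's supplementary tables, by identifier for 2062 genes and by TSS position for 4. Genes named were all members of the subunit, IκB and feedback lists, in other lists those called for all 4 subunits or up to 4 of highest p52 fold enrichment, the genes with most regions, the densest regions and those holding an amplicon. Of the genes under this rule, 1 is not reported here. Further listed genes were named after their values were seen. The members and lists were chosen with earlier results of these data known. Alternatives changed the window, the distance, the calls, the scaling, the pseudocount, the background filter and the regions per gene.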

Additional observations from a re-analysis of the deposited data

How the results depend on the processing

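Of 114 values under alternatives for the differences between upstream and downstream regions, 102 stayed within the interval of the value reported and did not change whether the interval left out 0. Of 24 for the number of regions and the share touching a gene, 20 moved little. The p50 call difference ranged from 1.35 to 5.31 points over 11 alternatives, and its interval left out 0 in 8. It included 0 within 5 kb (1.35), where the closest gene was that of the closest TSS (2.75) and with 1 region per gene (2.61). With 1 region per gene the RelA call difference was -1.26 points with an interval that left out 0. The log2 ratio of p50 reads per kb was 0.027 within 5 kb and 0.054 with 1 region per gene, with intervals that included 0. Without division by width it was -0.018 for p50, a change of sign, -0.077 for p52 and -0.22 for RelA. For RelA it was -0.074 within 5 kb and -0.080 with 1 region per gene, both intervals leaving out 0. In place of the fold enrichment, 1 of the 2 signal values gave a p52 log2 ratio of 0.19 with an interval that left out 0, and the other 0.09 (-0.06 to 0.23). Which replicate each belongs to is not given in the sources used here. A 5 kb window held by construction fewer regions, 834 upstream and 1092 downstream, of which 95.7% downstream touched a gene. Where the closest gene had to be that of the TSS, 0% upstream touched one, by construction. Every IDR in the table lay below 0.01, so that limit removed no call. The alternatives of an IDR below 0.001, of more than 1 kb from the TSS, of leaving out chromosome Y and of comparing only regions 500 to 2000 bp wide with other places were chosen after seeing the data. An IDR below 0.001 left 1710 p50, 1657 p52, 32 RelA and 383 RelB calls. No paired analysis was possible because read counts, calls and fold enrichments were merged over replicates. Single replicates could be compared on the signal values alone.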

Other observations

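The share of a chromosome's regions that flanked a TSS differed between chromosomes. On chromosome 19 it was 39.6% (251 of 634 regions), on chromosome 22 32.8%, on chromosome 17 31.2% and on chromosome 16 26.7%. The lowest shares were 11.9% on chromosome 18, 12.8% on chromosome 13, 13.1% on chromosome 4 and 14.4% on chromosome 2. The number of genes per chromosome was not set against these shares.

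RelB fold enrichment was highest at genes outside the lists. Upstream it was highest 4064 bp from GPR132, which encodes a G protein-coupled receptor, at chr14:104606863-104608637, with 49.5 for RelB, 52.4 for p50, 80.3 for p52 and 9.95 for RelA. Downstream it was highest 5352 bp from the TSS of BCAS1 at chr20:52113392-52115139, with 47.2 for RelB, 60.7 for p50 and 82.0 for p52, and no RelA call.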
